A study of Rattus norvegicus with 17 samples.

Results

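The phosphoinositide transfer and inositol trisphosphate (IP3) signalling genes described here are Pitpnm1, Pitpna, Pitpnb, Inpp5a, Itpr1, Itpka, Plcb1 and Isyna1, 8 of the 12978 genes with a symbol on the array. They were found as the probes annotated to 1 of these symbols, which gave 9 of 22226 probes, 2 of them for Isyna1. The set was chosen because Pitpnm1 was higher and Inpp5a lower at 28 months on these same arrays. The values of aged against adult rats are therefore given for all 8 genes as a description, without p-values. How many of them passed the threshold in that comparison is only counted, and nothing is read from the count. RNA came from hippocampal synaptosomes, a fraction enriched in pinched-off nerve terminals that was made by differential centrifugation, from male Fischer 344 x Brown Norway (F1) rats. Each rat's RNA went onto its own array of the Illumina RatRef-12 type. The labels name no drug or genetic change in any group. The adult group held 5 rats of 12 months. The aged intact group held 5 rats and the aged impaired group 7 rats, all of 28 months, divided by how close they swam to the former platform site in the Morris water maze, a spatial memory test.

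Phosphatidylinositol is built in the endoplasmic reticulum from inositol and carried to the plasma membrane by phosphatidylinositol transfer proteins, where kinases convert it to the bisphosphate that phospholipase C cleaves. The cleavage releases diacylglycerol, which stays in the membrane, and soluble IP3, which opens calcium channels of the endoplasmic reticulum until a phosphatase or a kinase removes it. In hippocampal neurons this route links metabotropic glutamate and muscarinic receptors to calcium release in dendrites and terminals.

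Levels are log2 intensities after background correction and quantile normalisation, and a difference of 1 on this scale is a doubling of the intensity. All 9 probes were detected (detection p under 0.05) on all 17 arrays. Mean deposited signals ran from 313 to 617 per array. Adult replicate 4 stood apart, with a mean correlation of 0.976 with the other arrays (at least 0.986 elsewhere) and 10440 detected probes (at least 10920 elsewhere). It was also the highest or the lowest of the 5 adult arrays for 8 of the 9 probes, so values without it are given where they matter. The adult rats were all hybridised on the same slide and the aged rats all on a second, which means that slide and age cannot be told apart, while both aged groups shared a slide. Of 12 markers of neurons and nerve terminals 11 were tested, among them Syp, Syn1 and Snap25, and each of these 3 was detected on 17 arrays. Rbfox3, from the same list, was detected on 13. The bulk fraction holds RNA of several cell types, and in it fewer cells of a type and less RNA per cell cannot be told apart.

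Pitpnm1 (Entrez 361694) was the member with the widest distance between ages. It encodes a large, membrane-associated phosphatidylinositol transfer protein that works where the endoplasmic reticulum touches the plasma membrane. Its log2 intensity on the adult arrays was 8.56, 8.28, 7.92, 7.51 and 8.13. On the aged intact arrays it was 9.59, 8.84, 9.09, 9.61 and 9.20. On the aged impaired arrays it ran from 9.02 through a median of 9.29 to 9.98. Every aged array thus lay above every adult array, and the same held for the deposited signals, which were at most 424 in adult and at least 461 in aged rats. Adults had a mean of 8.08 ± 0.40 (SD, n = 5), aged intact rats 9.27 ± 0.33 (SD, n = 5) and aged impaired rats 9.39 ± 0.33 (SD, n = 7), the last 2 closer than their spread. The difference of all aged rats from adults was 1.25 (standard error 0.18, 95% interval 0.86 to 1.63), or 2.37-fold, which ranked 8 from the highest of the 10457 tested probes. Against adults it was 1.19 in aged intact and 1.31 in aged impaired rats, comparisons that share their adult arrays. Without adult replicate 4 the difference was 1.10. The aged arrays stayed above the adult arrays in 8 of 8 ways of making the values, with the smallest gap, 0.0958, when no normalisation between arrays was used.

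Inpp5a (Entrez 365382) lay on the other side. It encodes the type I 5-phosphatase that inactivates IP3 and so ends its calcium signal. Its log2 intensity was 9.22, 9.39, 9.32, 9.65 and 9.35 in adult and 9.21, 9.03, 9.19, 9.01 and 9.04 in aged intact rats. In aged impaired rats it ran from 8.96 through a median of 9.13 to 9.19. The groups met almost edge to edge, with the lowest adult array at 9.22 and the highest aged array at 9.21. Adults had a mean of 9.39 ± 0.16 (SD, n = 5), aged intact rats 9.10 ± 0.09 (SD, n = 5) and aged impaired rats 9.10 ± 0.08 (SD, n = 7). The difference of aged from adult rats was -0.29 (standard error 0.06, 95% interval -0.41 to -0.17), or 0.819-fold, and -0.22 without adult replicate 4. It was -0.29 in aged intact and -0.29 in aged impaired rats against the same adults. Aged and adult arrays were apart in 5 of 8 ways of making the values, all with quantile normalisation and differing only in background or offset. The gap there was 0.0137 to 0.0165. The arrays overlapped in every way without quantile normalisation, namely no normalisation, median scaling, and background subtraction with scaling to the same mean. Without normalisation the difference was -0.12, where the median of all tested probes had moved to 0.22. In the deposited signals themselves the groups overlapped, and the median was 693 in adult, 699.8 in aged intact and 732 in aged impaired rats, so Inpp5a was not lower in aged rats before normalisation by this measure.

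In the comparison that chose these genes, 1 of the 9 probes passed the threshold as higher, Pitpnm1, and 1 as lower, Inpp5a (adjusted p under 0.05 in limma). Over all tested probes 0.488% were higher and 0.708% lower. These shares stand for 51 and 74 probes. With the background taken without probes whose detection p did not follow their signal, 84 of all tested probes were higher and 26 lower. Inpp5a there differed by -0.25 (standard error 0.066), and its call in that setting is not reported here. The arrays of aged and adult rats did not overlap for the same 2 probes, against 0.593% of all tested probes with every aged array higher and 0.325% with every aged array lower. Nothing is read from these counts, since the genes were picked on this difference.

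**Figure D1:**
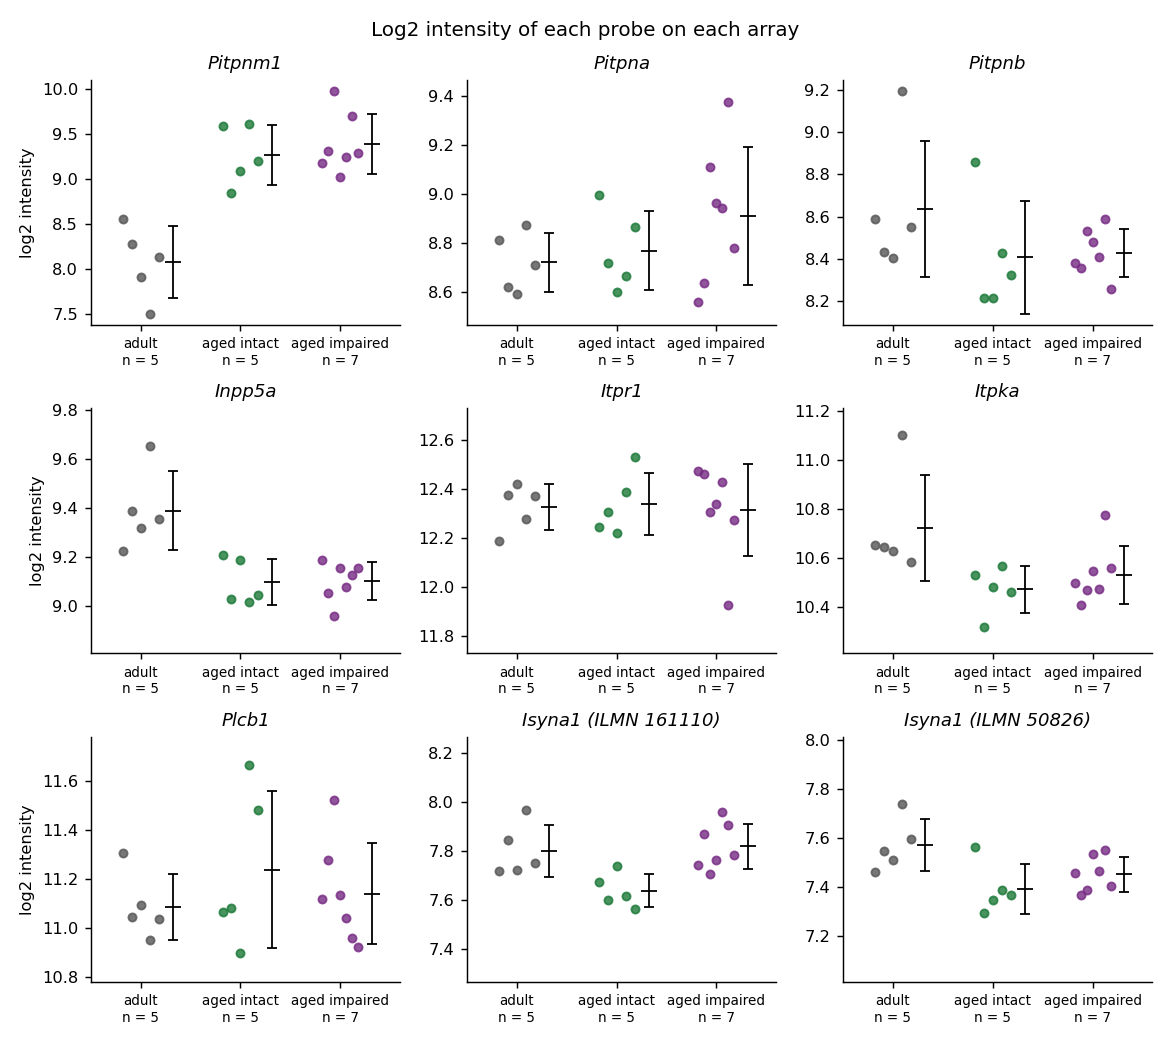
Log2 intensity (vertical axis, a separate scale in each panel) of the 9 probes on each array, in adult (n = 5), aged intact (n = 5) and aged impaired (n = 7) rats. Points are single arrays and the bar beside them is the mean with its SD. The aged arrays of Pitpnm1 lie between 8.84 and 9.98, all above the adult maximum of 8.56, and 1 adult array is far above the others for Pitpnb (9.19) and Itpka (11.11).

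The promoters of Pitpnm1 and Inpp5a are shown because these genes carry the opposite differences. They are RefSeq sequences of the build GRCr8, 250 bases before to 50 after the start of the gene, on the plus strand, at chr1:210823366-210823665 for Pitpnm1 and chr1:203619733-203620032 for Inpp5a. Capitals mark the GC box GGGCGG or its reverse complement CCGCCC, the binding motif of SP1 and related factors.
Pitpnm1: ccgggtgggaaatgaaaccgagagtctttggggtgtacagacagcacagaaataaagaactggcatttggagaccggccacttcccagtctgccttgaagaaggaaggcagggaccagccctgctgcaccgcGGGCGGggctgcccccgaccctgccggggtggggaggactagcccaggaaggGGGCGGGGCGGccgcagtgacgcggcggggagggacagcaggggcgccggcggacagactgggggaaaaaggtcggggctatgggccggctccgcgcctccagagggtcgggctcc
Inpp5a: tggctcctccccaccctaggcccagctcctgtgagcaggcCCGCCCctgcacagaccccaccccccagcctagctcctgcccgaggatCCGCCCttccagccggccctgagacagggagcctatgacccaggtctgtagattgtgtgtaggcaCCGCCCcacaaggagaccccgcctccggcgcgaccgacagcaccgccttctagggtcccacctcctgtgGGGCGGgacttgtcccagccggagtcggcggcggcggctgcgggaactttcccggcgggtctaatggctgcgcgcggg
Both stretches are rich in G and C (68.3% and 70.7%, against a median of 51.7% over 33469 promoters of the table) and in the CG dinucleotide (22 and 23, median 7). The GC box occurs 3 times in Pitpnm1, where 2 of the matches overlap by 1 base, and 4 times in Inpp5a, and at least once in 33.1% of all promoters. The E box CACGTG (6.42% of all promoters), the cAMP response element TGACGTCA (1.83%) and the TATA box TATAAA (14.2%), searched on both strands, match neither. Of the 8 genes, 7 had a promoter in the table and 4 of these hold the GC box. The arrays do not measure promoters, and the matches are a description of the letters.

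The single-domain transfer proteins did not share the distance of Pitpnm1. Pitpna (Entrez 29525) and Pitpnb encode the soluble alpha and beta forms, which exchange phosphatidylinositol and phosphatidylcholine between membranes. The log2 intensity of Pitpna was 8.81, 8.62, 8.59, 8.87 and 8.71 in adult and 8.99, 8.72, 8.60, 8.67 and 8.87 in aged intact rats. In aged impaired rats it ran from 8.56 through a median of 8.94 to 9.37, the widest range of the 3 groups, and all groups overlapped. The order of the means was adult (8.72 ± 0.12, SD, n = 5), aged intact (8.77 ± 0.16, SD, n = 5) and aged impaired (8.91 ± 0.28, SD, n = 7), with neighbours closer than their spread. Aged rats differed from adults by 0.12 (standard error 0.11, 95% interval -0.11 to 0.35), and against the same adults the values were 0.047 in aged intact and 0.19 in aged impaired rats.

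Pitpnb lay at 8.59, 8.44, 8.40, 9.19 and 8.55 in adult and at 8.86, 8.22, 8.22, 8.43 and 8.33 in aged intact rats. In aged impaired rats it ran from 8.26 through a median of 8.41 to 8.59. A single array was high in each of the 5-rat groups, and without it the aged intact arrays reached the adult range only with 8.43 against an adult lowest of 8.40. Adults had the highest mean, 8.63 ± 0.32 (SD, n = 5), ahead of aged impaired rats at 8.43 ± 0.11 (SD, n = 7) and aged intact rats at 8.41 ± 0.27 (SD, n = 5), with no neighbours in this order apart by more than their spread. The difference of aged from adult rats was -0.22 (standard error 0.12, 95% interval -0.47 to 0.04), and -0.076 without adult replicate 4. The array that Pitpnb singles out among adults is the same as for Itpka.

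Plcb1 encodes the phospholipase C beta that Gq-coupled receptors switch on to produce IP3. Its log2 intensity was 11.31, 11.05, 11.10, 10.95 and 11.04 in adult and 11.07, 11.08, 10.90, 11.67 and 11.48 in aged intact rats. In aged impaired rats it ran from 10.93 through a median of 11.12 to 11.52. The groups overlapped, and the highest array was aged intact replicate 4. Adults had the lowest mean, 11.09 ± 0.13 (SD, n = 5), followed by aged impaired rats at 11.14 ± 0.21 (SD, n = 7) and aged intact rats at 11.24 ± 0.32 (SD, n = 5), steps smaller than the spread. Aged rats differed from adults by 0.10 (standard error 0.12, 95% interval -0.15 to 0.35), by 0.069 without adult replicate 4, and by 0.049 to 0.16 with any 1 array left out.

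Itpr1, the IP3 receptor that predominates in neurons, was level across the groups. It lay at 12.19, 12.38, 12.42, 12.28 and 12.37 in adult and at 12.25, 12.31, 12.22, 12.39 and 12.53 in aged intact rats. In aged impaired rats it ran from 11.93 through a median of 12.34 to 12.48, the low value being that of replicate 6. The means were 12.33 ± 0.09 (SD, n = 5), 12.34 ± 0.13 (SD, n = 5) and 12.32 ± 0.19 (SD, n = 7). Aged rats differed from adults by 0.00083 (standard error 0.08, 95% interval -0.16 to 0.16).

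Itpka encodes the neuronal IP3 kinase, which adds a phosphate to IP3 and also bundles actin in dendritic spines. It lay at 10.65, 10.65, 10.63, 11.11 and 10.58 in adult and at 10.53, 10.32, 10.48, 10.57 and 10.46 in aged intact rats. In aged impaired rats it ran from 10.41 through a median of 10.50 to 10.78. The highest aged intact array was at 10.57 and the lowest adult array at 10.58, and aged impaired and adult arrays overlapped. The share of all tested probes without overlap between aged intact and adult arrays was not computed, so nothing is read from this. Aged intact rats had the lowest mean, 10.47 ± 0.10 (SD, n = 5), with aged impaired rats at 10.53 ± 0.12 (SD, n = 7) within their spread and adults highest at 10.72 ± 0.22 (SD, n = 5). The difference of aged from adult rats was -0.22 (standard error 0.08, 95% interval -0.38 to -0.058), and -0.12 without adult replicate 4, whose distance to the next array was 0.867 of the adult range. Against the same adults it was -0.25 in aged intact and -0.19 in aged impaired rats.

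Isyna1 encodes inositol-3-phosphate synthase, which makes inositol from glucose phosphate and so stands at the head of the route. Probe ILMN_161110 gave 7.72, 7.84, 7.72, 7.97 and 7.75 in adult and 7.67, 7.60, 7.74, 7.61 and 7.56 in aged intact rats, and in aged impaired rats 7.71 to 7.96 with a median of 7.78. Probe ILMN_50826 gave 7.46, 7.55, 7.51, 7.74 and 7.59 in adult and 7.56, 7.29, 7.35, 7.39 and 7.36 in aged intact rats, and in aged impaired rats 7.36 to 7.55 with a median of 7.45. Both probes were lowest in aged intact rats, and both overlapped between all groups. The first probe averaged 7.64 ± 0.07 (SD, n = 5) in them, 7.80 ± 0.11 (SD, n = 5) in adults and 7.82 ± 0.09 (SD, n = 7) in aged impaired rats, and the second 7.39 ± 0.10, 7.57 ± 0.11 and 7.45 ± 0.07. Aged rats differed from adults by -0.072 (standard error 0.05, 95% interval -0.17 to 0.028) at the first probe and by -0.15 (standard error 0.05, 95% interval -0.25 to -0.049) at the second, and without adult replicate 4 by -0.031 and -0.11. These dim probes depend on the background estimate. With the background taken without probes whose detection p did not follow their signal (203 to 217 probes per array, none of them of these genes), the differences were -0.10 and -0.29, while that of Pitpnm1 was 1.18 and that of Inpp5a -0.25. Without normalisation both Isyna1 probes were higher in aged rats, by 0.15 and 0.071, where all probes had moved by 0.22. Over the 12 aged arrays, deviations of the probes from their group means had Pearson's r = 0.236 (permutation p = 0.452) and Spearman's rho = 0.245 (permutation p = 0.456), with r = 0.227 without the 2 arrays farthest from the median of the first probe.

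The comparison of aged impaired with aged intact rats asks whether the genes go with maze performance within an age, and it was not used to choose them. In it 0 of the 9 probes passed in limma (adjusted p from 0.996 to 0.997), against 0% of all tested probes, and 1 of the 9 had an unadjusted p under 0.05, as did 346 of the 10457. That probe was ILMN_161110 of Isyna1, which was higher in aged impaired rats by 0.18 (standard error 0.05, 95% interval 0.070 to 0.29, adjusted p = 0.996 in limma). The other Isyna1 probe differed by 0.061 (95% interval -0.049 to 0.17), or 0.14 with the background taken without the mismatched probes. Pitpnm1 differed by 0.12 (95% interval -0.30 to 0.54) and Inpp5a by 0.0049 (95% interval -0.13 to 0.14) between the aged groups. Pitpna differed by 0.14 (-0.11 to 0.39), Pitpnb by 0.021 (-0.26 to 0.30), Itpr1 by -0.023 (-0.20 to 0.16), Itpka by 0.060 (-0.12 to 0.24) and Plcb1 by -0.098 (-0.37 to 0.18). All 5 of these intervals include 0. In the same comparison the 9 tested oligodendrocyte and myelin markers all lay below 0, with a median of -0.22 and a highest value of -0.045. Of these markers 0 passed and 3 had an unadjusted p under 0.05. The 10 tested microglia and macrophage markers had a median of 0.21, from -0.25 to 0.27, and 0 had an unadjusted p under 0.05. The medians of the neuronal and astrocyte markers were -0.041 and -0.014, and that of the 2 tested endothelial markers was 0.10. The 6 tested astrocyte markers ran from -0.40 to 0.071, and 1 of them had an unadjusted p under 0.05 in limma. The neuronal markers ran from -0.15 to 0.14, and 0 had an unadjusted p under 0.05. The part of these cell types in the Isyna1 difference was not tested.

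**Figure D2:**
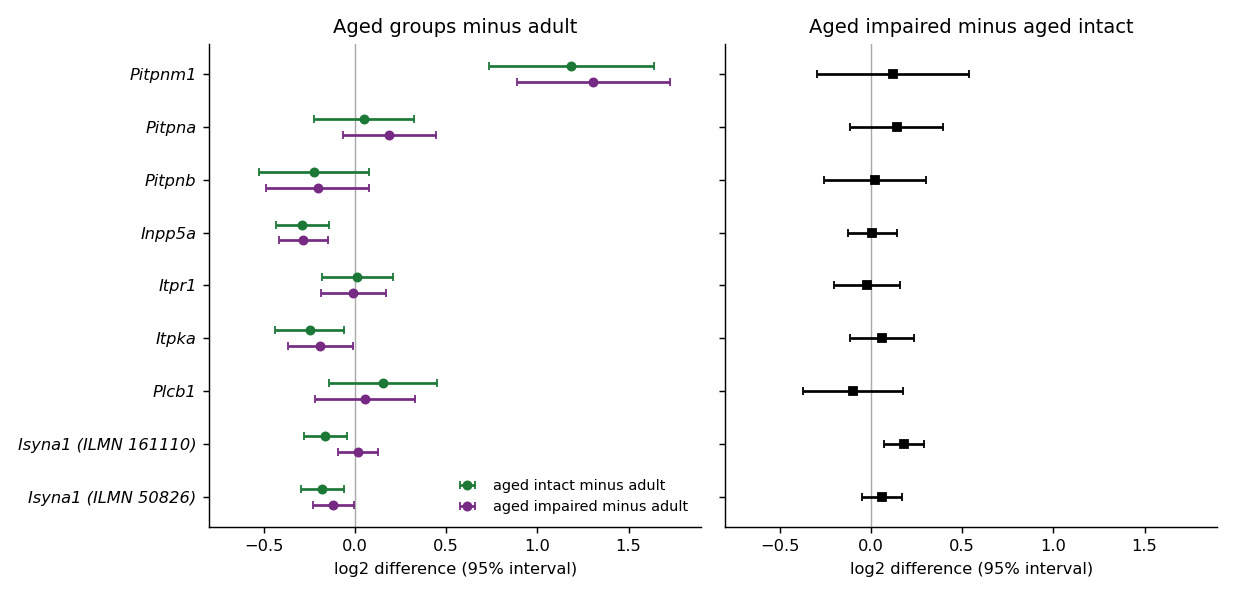
Log2 differences (horizontal axis) of the 9 probes with their 95% intervals from limma. The left panel gives aged intact and aged impaired rats minus adults, a description because the genes were chosen on it, and the right panel gives aged impaired minus aged intact rats. In the left panel Pitpnm1 lies at 1.19 and 1.31 and the others between -0.29 and 0.19, and in the right panel only the interval of Isyna1 probe ILMN_161110 (0.070 to 0.29) leaves out 0.

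How the genes varied together was examined within aged rats, whose arrays shared a slide, as deviations from the mean of each aged group over 12 arrays. Of the 28 pairs of genes, 0 passed after adjustment over the pairs, by Pearson's r or by Spearman's rho, and 4 had an unadjusted permutation p under 0.05 for r (100000 permutations of arrays within their group, two-sided). By r the highest pair was Pitpna and Pitpnb, with r = 0.638 (permutation p = 0.00285, adjusted p = 0.0798), rho = 0.657 (adjusted p = 0.245) and r = 0.597 without the 2 arrays farthest from the median of Pitpna. By rho it was Itpr1 and Plcb1, the IP3 receptor and an enzyme that makes its ligand, with rho = 0.713 (permutation p = 0.0175, adjusted p = 0.245), r = 0.494 (permutation p = 0.0948, adjusted p = 0.295) and r = 0.415 without the 2 farthest arrays of Itpr1. Pitpnm1 and Pitpnb had r = 0.637 (permutation p = 0.0212, adjusted p = 0.198) and rho = 0.594 (adjusted p = 0.402). With the mean signal of the array (log2), Pitpnb had r = -0.658 (permutation p = 0.0364, adjusted p = 0.291 over the genes). Pitpna had -0.368 and Pitpnm1 -0.26, whereas Itpr1 had 0.372. The part of array brightness in these pairs was not tested. The opposite relation was widest between Inpp5a and Plcb1, the IP3-removing and the IP3-producing enzyme, with r = -0.747 (permutation p = 0.0158, adjusted p = 0.198), rho = -0.685 (adjusted p = 0.356) and r = -0.619 without the 2 farthest arrays of Inpp5a. Itpr1 and Itpka had r = -0.679 (permutation p = 0.0446, adjusted p = 0.281), which was -0.219 without the 2 arrays farthest from the median of Itpr1 and so rests on them. Pitpnm1 and Inpp5a, the pair with opposite differences by age, had r = -0.314 (permutation p = 0.339, adjusted p = 0.528) and rho = -0.350 (adjusted p = 0.552).

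**Figure D3:**
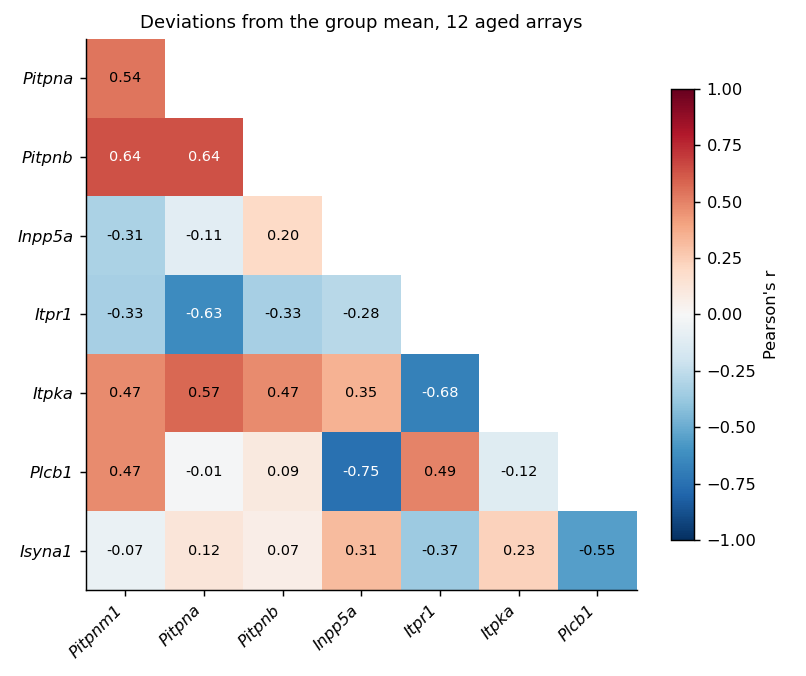
Pearson's r (colour scale and printed value, from -1 to 1) between the 8 genes over 12 aged arrays, each value taken as the deviation from the mean of its aged group, with Isyna1 by probe ILMN_161110. The r values run from -0.747 (Inpp5a and Plcb1) to 0.638 (Pitpna and Pitpnb), and none passed after adjustment over the 28 pairs.

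The genes most like Pitpnm1 and Inpp5a over the 17 arrays were looked up among 7292 other genes. By Pearson's r of the log2 intensities, which includes the difference between ages and slides, Pitpnm1 was nearest to Ctsd (r = 0.912), the lysosomal protease cathepsin D, Cdh1 (r = 0.884), the epithelial cadherin, and Cdc73 (r = 0.877), a subunit of the Paf1 transcription complex. By deviations from the 3 group means it was nearest to Med16 (r = 0.936), a subunit of the Mediator complex, C5h1orf122 (r = 0.900) and Ahdc1 (r = 0.895). None of the 3 names recurs between the measures. Inpp5a was nearest to Dok4 (r = 0.932), a docking protein of receptor tyrosine kinases, Polr2f (r = 0.929), a subunit of the RNA polymerases, and Jakmip1 (r = 0.927), and by deviations to Slc37a2 (r = 0.944), a sugar phosphate transporter, Pkig (r = 0.915), an inhibitor of protein kinase A, and Lcmt1 (r = 0.898), which methylates protein phosphatase 2A. These are the 3 highest of 7292 values by each measure and are given as a description over the same arrays. Adult replicate 4 was among them, with the highest Inpp5a (9.65) and the lowest Pitpnm1 (7.51) of the 17 arrays. The r values without it were not computed.

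The rest of the route was followed in 9 lists of 147 genes that hold none of the 8, of which 112 have a probe. The test took in 97, and by limma 0 of them were higher and 1 was lower in aged than in adult rats. Over all tested probes 0.488% were higher and 0.708% lower. With the background taken without mismatched probes, 0 of the 97 were higher and 0 lower, against 84 and 26 of all tested probes. The median difference of the 97 was -0.011, against -0.0062 over all tested probes. The gene that fell was Calr, which encodes the calcium-binding chaperone calreticulin of the endoplasmic reticulum. Its log2 intensity averaged 13.68 ± 0.06 (SD, n = 5) in adults and 13.55 ± 0.05 (SD, n = 12) in aged animals. The difference was -0.13 (standard error 0.03, adjusted p = 0.0483 in limma), and aged and adult arrays overlapped. The call held in 5 of 31 other settings and not with the background taken without mismatched probes (adjusted p = 0.23) or without adult replicate 4 (adjusted p = 0.154), and the difference was 0.15 without normalisation, where all probes had moved by 0.22. Between aged impaired and aged intact rats 0 of the 97 passed and 1 had an unadjusted p under 0.05.

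Among receptors and enzymes upstream of IP3, 0 of the 14 tested Gq proteins, receptors and regulators and 0 of the 10 phospholipases C passed. Rgs4, which shortens the signal of Gq, had the largest difference of the 97 genes in size, -0.60 (standard error 0.16, adjusted p = 0.090 in limma), and Plcg1, the phospholipase C gamma of receptor tyrosine kinases, had -0.38 (standard error 0.10, adjusted p = 0.072). Without adult replicate 1, 3 genes were lower, and they were Calr, Plcg1 and the phosphatase gene Inpp5j. In that setting the lower calls over all 10457 tested probes also rose, from 74 to 128. The alpha-1B adrenergic receptor Adra1b differed by -0.18 and Plcd4, a delta phospholipase C, by -0.27. Gnaq, the alpha subunit of Gq, differed by -0.039 and Grm5, a metabotropic glutamate receptor, by 0.017. These were dim probes, with adult means of 7.06 for Gnaq and 7.08 for Grm5, and their differences depended on the background. Taken without mismatched probes, it gave -0.31 (Adra1b), -0.33 (Plcd4), -0.24 (Gnaq) and 0.087 (Grm5), none past the threshold.

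Among genes of lipid supply and turnover, 0 of the 6 for inositol and phosphatidylinositol synthesis, 0 of the 13 phosphoinositide kinases and 0 of the 18 phosphoinositide phosphatases passed, and 0 of the 3 further transfer proteins were tested. The inositol transporter Slc5a3 had the highest difference of the 97, 0.40 (standard error 0.19, adjusted p = 0.28 in limma), which was 0.14 without adult replicate 4. Cdipt, phosphatidylinositol synthase, differed by -0.18 and Impa1, inositol monophosphatase, by -0.015. The kinases Pip4k2a and Pi4ka differed by 0.25 and -0.079. With the background taken without mismatched probes the difference of Pip4k2a was 0.45 (adjusted p = 0.166 in limma). The phosphatases Pip4p1, Inpp5j and Synj1, the last of which uncoats synaptic vesicles, differed by -0.23, -0.16 and -0.026.

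Downstream of IP3, 0 of the 10 inositol phosphate kinases and phosphatases, 1 of the 12 genes of IP3 receptors and endoplasmic reticulum calcium (Calr) and 0 of the 14 genes of the diacylglycerol arm passed. Stim1, the calcium sensor of the endoplasmic reticulum, differed by -0.23 (standard error 0.07, adjusted p = 0.11 in limma), and the receptor gene Itpr2 by 0.0043. The IP3 kinase Itpkc differed by -0.020 and Ip6k2, which pyrophosphorylates inositol hexakisphosphate, by -0.14. Itpr2 (adult mean 6.91) and Itpkc (6.97) were dim as well. With the background taken without mismatched probes they differed by 0.046 and -0.17, neither past the threshold. In the diacylglycerol arm Prkcb, a protein kinase C of neurons, differed by -0.037, and the diacylglycerol kinases Dgka and Dgkz by -0.25 and -0.13. The median of the 12 calcium genes, -0.085, was the lowest of the lists, and 5 of the 12 lay above 0. Pitpnm2, Itpkb, Itpk1, Itpr3 and Pip5k1c have a probe and were not detected widely enough to be tested, and Pitpnc1, Inpp1, Plcb4, Homer1 and Ryr2 are not analysed here.

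**Figure D4:**
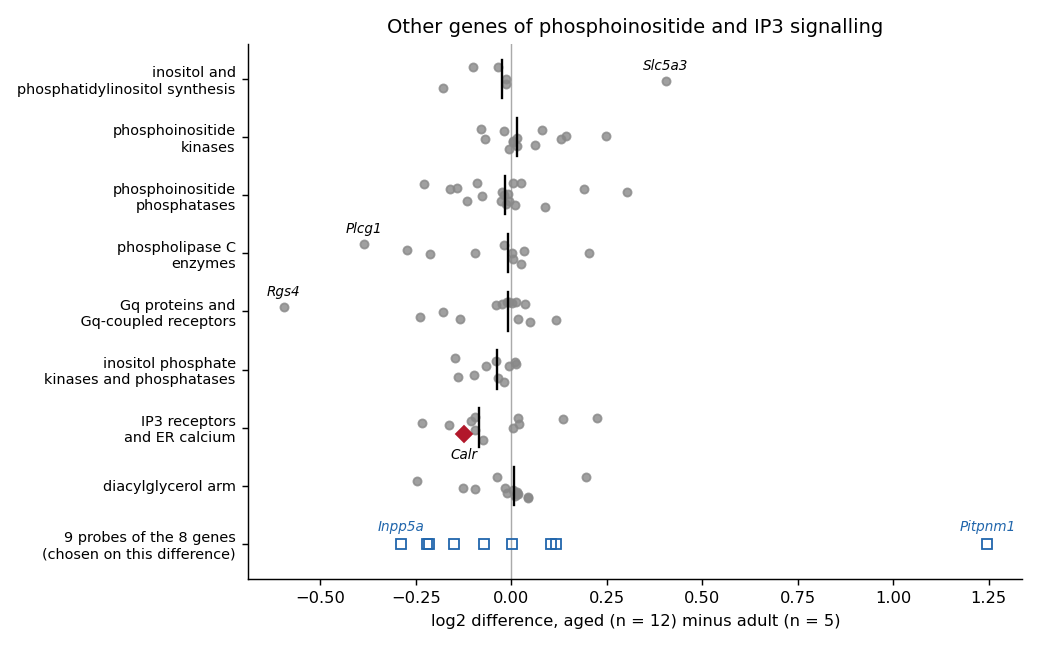
Log2 difference of aged (n = 12) minus adult (n = 5) rats (horizontal axis) for the 97 tested genes in their lists (points, with the list median as a bar) and, at the bottom, for the 9 probes of the 8 chosen genes (open squares). The diamond is Calr (-0.13), the 1 gene past the threshold, and the 97 values run from -0.60 (Rgs4) to 0.40 (Slc5a3), short of Pitpnm1 at 1.25.

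Markers of another cell type moved with age beside these genes. Of 12 markers of microglia and macrophages 10 were tested, 2 were higher and 0 lower in aged rats, all 10 differences lay above 0, and their median was 0.39. The 2 were Cd74, the invariant chain of antigen presentation, with a difference of 2.25, and P2ry12, a purinergic receptor of microglia, with 0.55. The summed intensity of the 10 was between 6249 and 6906 on adult arrays and between 7700 and 9351 on aged intact arrays. On aged impaired arrays it was between 7410 and 29510, or at most 8545 without replicate 4. All 10 were detected on 17 arrays, adults included, and none was at 0. On that replicate, with the highest microglial sum, Pitpnm1 was at 9.02, the lowest of the aged impaired rats. Over the 12 aged arrays the deviations of Pitpnm1 and of the microglial sum (log2) had r = -0.471 (permutation p = 0.146, adjusted p = 0.324 over 3 relations) and rho = -0.469 (adjusted p = 0.135), with r = -0.403 without the 2 arrays of the farthest sums. For Inpp5a r was 0.340 (permutation p = 0.216, adjusted p = 0.324) and rho 0.364 (adjusted p = 0.144), and 0.568 without those arrays. Of the 11 tested neuronal markers 0 were higher and 0 lower, with a median of -0.013, and of the 6 astrocyte and 9 oligodendrocyte markers tested none passed either. With the background taken without mismatched probes, 3 of the microglial markers and 1 of the oligodendrocyte markers were higher. In that setting 0 neuronal and 0 astrocyte markers were higher. The part of microglial RNA in the difference of Pitpnm1 between ages was not tested.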

How the data were processed

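The authors scanned the arrays and summarised the beads of each probe in GenomeStudio, whose version the submitters' processing notes give as 1.0.6. This gave the deposited intensity, with no normalization between arrays, and a deposited p-value of detection against negative controls. The second deposited table repeats the same values. From these deposited signals log2 intensities were made here in R 4.3.3 by the neqc function of the limma package, version 3.58.1 (background from the detection p-values, offset 16, quantile normalization). A probe was tested where each array of some group had it at a detection p under 0.05, which held for 10457 of 22226. A single lmFit and eBayes model covered the 3 groups, with Benjamini-Hochberg adjustment over the tested probes and a threshold of 0.05. Where a gene had several probes, pairs, likeness and lists used the brightest.

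On each array 203 to 217 probes had a detection p off the steps of 1 in 825 negative controls and unrelated to their signal. They raised the background SD used by neqc to between 120 and 225, against 7.29 to 16.3 without them, so a background without them was added after the data were seen. Replicate numbers are those in the labels' descriptions, not the rat numbers of the titles. The genes, lists and tests were chosen with earlier results of these data known. Named are all probes of the 8 genes, the pathway genes past the threshold, 22 fixed ones, the 2 of each list with the smallest p, and the 3 genes most like Pitpnm1 and Inpp5a by each measure. Symbols came from the platform annotation (13192 probes with 1 symbol) updated by Entrez ID, and promoters from RefSeq. Fit and pair tests were checked on simulated data. The number of arrays limits the precision, and no slide term could be fitted for age.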

Additional observations from a re-analysis of the deposited data

Results flagged for a closer look

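In 27 groups of arrays (9 probes in 3 groups), 4 single arrays lay far from the others of their group by the size of the gap against the group's range, where chance alone flags about 1 in 20 groups. Pitpnb in adult replicate 4 was at 9.19, with the next adult array at 8.59. Itpka in the same rat was at 11.11, with the next at 10.65. In aged impaired replicate 6, Itpr1 was at 11.93, the lowest, with the next at 12.27, and Itpka was at 10.78, the highest, with the next at 10.56. So the 4 values come from 2 rats.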

How the results depend on the processing

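Over the settings tried, the count of the 9 probes passing between aged impaired and aged intact rats, of pathway genes passing between them, and of pathway genes higher with age stayed at 0. The difference of Pitpnm1 between ages ran from 1.09 to 1.44 and that of Inpp5a from -0.35 to -0.12. The pathway gene lower with age (1) became 0 with no background correction, a robust background, the background without mismatched probes (added after seeing the data), no normalization, median scaling, background subtraction with scaling to the same mean, no filter on detection, slide position, the replicate block and a random replicate block, and 4 in the methods' test, and it ran from 0 to 3 with 1 array left out (3 without adult replicate 1). Over all tested probes, 216 were lower in the methods' test and 128 without adult replicate 1, against 74 in the main setting. Fewer were lower, 26, with the background without mismatched probes, where 84 were higher against 51 in the main setting. Rats with the same replicate number did not deviate together (15 pairs, r from -0.381 to 0.238), and the replicate block left 1 probe higher and 0 lower of all tested. Pairs of genes passing (0) became 26 with no normalization and 21 with median scaling, and ran from 0 to 1 with 1 array left out (1 without aged impaired replicate 7).

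Without normalization, where all probes moved by a median of 0.22, signs turned for aged minus adult in Calr (0.15), Prkcb (0.20), Cdipt (0.054), Pi4ka (0.13), Synj1 (0.17), Dgkz (0.057), Impa1 (0.16), Ip6k2 (0.031), Inpp5j (0.0056), Adra1b (0.052), Gnaq (0.19) and Itpkc (0.21), and for aged impaired minus aged intact in Itpr1 (0.12) and Plcb1 (0.052). Between the aged groups Itpr1 turned to 0.040 with median scaling, 0.043 with array weights, 0.021 with slide position and 0.064 with the replicate block, Inpp5a to -0.0026 with array weights and -0.010 with the replicate block, and Itpka to -0.021 with slide position. For age, array weights turned Prkcb (0.018), Impa1 (0.016) and Grm5 (-0.0034), and the replicate block Synj1 (0.012). With 1 array left out, differences between the aged groups ran from -0.027 to 0.13 in Pitpnb, -0.015 to 0.033 in Inpp5a, -0.053 to 0.042 in Itpr1 and -0.18 to 0.0089 in Plcb1, and those by age from -0.12 to 0.028 in Synj1, -0.027 to 0.0063 in Impa1, -0.00064 to 0.035 in Grm5 and -0.0013 to 0.018 in Itpr2. The cause was not tested.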
